A study of Mus musculus with 5 samples.

Results

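The conjugating enzymes of the Ugt, Sult and Gst families were described here in 5 RNA-seq libraries of mouse liver. The members are all gene records of the deposited table whose symbol has the form of a UDP-glucuronosyltransferase (Ugt), a cytosolic sulfotransferase (Sult) or a cytosolic or kappa glutathione transferase (Gsta, Gstm, Gstp, Gstt, Gstk and Gsto), and no level was used to choose them. They are 61 of 46095 records, with 20 Ugt, 21 Sult and 20 Gst genes. The study deleted the splicing factor gene Srsf2 in hepatocytes by crossing mice with loxP-flanked alleles (Srsf2f/f) to Alb-Cre mice, which gave the knockout called HKO. All mice were C57BL/6. The compared livers were 2M HKO against 2M Srsf2f/f, and the tumor and the non-tumor section of a 12M mutant liver against 12M Srsf2f/f, where M is the age in months as the titles give it; the sample codes of the 12M libraries begin with M13, so their exact age is in doubt. The labels call the Srsf2f/f livers wild type and give the 2M HKO liver and the non-tumor section the same mutant genotype. The tumor has no genotype in its labels, and its sample code carries the same animal number as that of the non-tumor section, so both sections may come from 1 mouse. Alb-Cre acts in hepatocytes, and whether the other cells of these livers kept Srsf2 was not tested here. The study found SRSF2 protein again in adult HKO livers. Each group is 1 library. No p-value is therefore given, and differences between mice of 1 group are not covered by any interval.

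Phase II enzymes make lipophilic compounds soluble in water. UDP-glucuronosyltransferases sit in the membrane of the endoplasmic reticulum and attach glucuronic acid to bilirubin, bile acids, steroids and drugs. Cytosolic sulfotransferases attach sulfonate from the donor PAPS to phenols, steroids and bile acids, and glutathione transferases attach glutathione to reactive electrophiles. The products leave hepatocytes through efflux pumps into bile or blood. In mouse liver many of these genes are induced by the receptors CAR, PXR and AhR or by Nrf2, the regulator of antioxidant genes, and several differ in level between the sexes.

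The Ugt1a genes on chromosome 1 each have their own promoter and first exon and share the exons that follow. The sequences before their first exons can therefore be set beside each other. All Ugt1a records except Ugt1a6b end at the same position, 88220002 of GRCm38. The 130 bases before the RefSeq start of 4 of these genes are shown, Ugt1a1, Ugt1a5 and Ugt1a9 because they differed in the tumor and Ugt1a6a beside them as a gene that was not called, 5′ to 3′ on the gene's strand, from RefSeq GRCm38.p6. Capitals mark matches to TNGCGTG, the core of the xenobiotic response element bound by the dioxin receptor AhR, which was searched on both strands in the 300 bases around each start and overlaps no match of the other motifs searched in the members. The stretches are chr1:88070649-88070778 (plus strand) for Ugt1a9, chr1:88134679-88134808 (plus strand) for Ugt1a6a, chr1:88165882-88166011 (plus strand) for Ugt1a5 and chr1:88211829-88211958 (plus strand) for Ugt1a1.
Ugt1a9: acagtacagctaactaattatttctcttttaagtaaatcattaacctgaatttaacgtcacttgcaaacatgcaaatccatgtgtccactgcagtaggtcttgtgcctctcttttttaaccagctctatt
Ugt1a6a: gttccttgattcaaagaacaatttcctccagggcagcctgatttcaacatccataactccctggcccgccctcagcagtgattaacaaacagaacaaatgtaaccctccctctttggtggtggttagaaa
Ugt1a5: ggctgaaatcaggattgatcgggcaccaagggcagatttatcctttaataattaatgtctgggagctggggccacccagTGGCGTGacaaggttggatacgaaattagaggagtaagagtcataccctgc
Ugt1a1: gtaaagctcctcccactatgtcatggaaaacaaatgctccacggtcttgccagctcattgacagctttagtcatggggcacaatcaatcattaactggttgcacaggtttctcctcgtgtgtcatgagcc

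Of these Ugt1a stretches, that of Ugt1a5 holds the match, which begins 51 bases before its start. Ugt1a1, which conjugates bilirubin, Ugt1a6a and Ugt1a9 have no match in their 300 bases. The Ugt1a1 stretch is 46.8% identical to that of Ugt1a5 and 48.6% identical to that of Ugt1a9 in a global alignment. Ugt2b34 and Ugt2b1 follow each other on chromosome 5, with 9701 bases between the records, and are shown because their levels lie far apart in the 2M HKO liver and the tumor. Ugt2a3 lies further along the same cluster and was also lower in the 2M HKO liver and the tumor. None of the 3 holds the match. The stretches are chr5:86906938-86907067 (minus strand), chr5:86926504-86926633 (minus strand) and chr5:87337196-87337325 (minus strand).
Ugt2b34: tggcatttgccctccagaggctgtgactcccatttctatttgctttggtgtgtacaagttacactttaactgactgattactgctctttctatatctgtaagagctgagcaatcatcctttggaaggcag
Ugt2b1: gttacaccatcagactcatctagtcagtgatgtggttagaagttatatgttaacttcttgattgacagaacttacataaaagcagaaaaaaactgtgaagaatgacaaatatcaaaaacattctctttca
Ugt2a3: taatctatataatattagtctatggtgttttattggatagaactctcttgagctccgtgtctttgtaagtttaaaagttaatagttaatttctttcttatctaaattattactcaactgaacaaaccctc

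Gsta1 and Gsta2 on chromosome 9 are shown because their transcripts share sequence and both were higher in mutant tissues. Their stretches, chr9:78230539-78230668 (plus strand) and chr9:78347146-78347275 (minus strand), are 84.4% identical over 135 aligned columns, and that of Gsta2 alone holds the match, 9 bases before its start.
Gsta1: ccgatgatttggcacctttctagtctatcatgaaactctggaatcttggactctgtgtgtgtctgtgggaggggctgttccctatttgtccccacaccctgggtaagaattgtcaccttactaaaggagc
Gsta2: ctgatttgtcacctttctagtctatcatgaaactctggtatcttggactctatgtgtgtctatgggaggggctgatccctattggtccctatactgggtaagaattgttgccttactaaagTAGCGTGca

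All 61 members matched a RefSeq gene and 53 have a promoter entry there, some with several starts. Within 250 bases before to 50 bases after the start, TNGCGTG occurs at 3 of these 53 members (Gsta2, Sult1d1 and Ugt1a5), or 5.66%, and at 5.07% of all 32851 such promoters. The core of the antioxidant response element, TGACNNNGC, likewise occurs at 3 members (Gsta3, Gstm5 and Gstm7) and at 12.4% of all promoters. A site of the factor HNF4 in 1 spelling, CAAAGTCCA, occurs at Sult1b1 and at 0.475% of all. Each match only states that the letters are there.

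The libraries hold 34969834 to 36104176 fragments, worked back from the deposited FPKM (fragments per gene, scaled to gene length and to the library's total). Ratios are log2 ratios of FPKM after adding 0.1. Calls follow the fold rule of the study without its p-value: the log2 ratio had to exceed 1 for a higher call or lie under -1 for a lower call, and 1 of the compared libraries had to exceed 5 FPKM. Intervals are 95% exact binomial intervals on fragments and cover counting error only. Genes expressed in all libraries were shifted as a whole, by 0.25 on the log2 scale for 2M HKO against 2M Srsf2f/f, 0.19 for the non-tumor section and 0.35 for the tumor against 12M Srsf2f/f, 0.16 for the tumor against the non-tumor section and -0.04 for 12M against 2M Srsf2f/f. Srsf2 itself had 22.7 FPKM in the 2M HKO liver, against 14.6 FPKM in the 2M Srsf2f/f liver, and 15.6 FPKM in the tumor and 17.6 FPKM in the non-tumor section, against 15.7 FPKM in the 12M Srsf2f/f liver. The hepatocyte gene Alb had 34154 FPKM in the 2M HKO liver, against 35555 FPKM in the 2M Srsf2f/f liver, and 28781 FPKM in the tumor, 35874 FPKM in the non-tumor section and 34306 FPKM in the 12M Srsf2f/f liver.

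Other cell types differed in weight between these libraries. Of 12 macrophage markers, 11 were called higher in the 2M HKO liver, where they summed to 2321 FPKM, against 437 FPKM in the 2M Srsf2f/f liver. They summed to 589 FPKM in the tumor and 664 FPKM in the non-tumor section, against 363 FPKM in the 12M Srsf2f/f liver. Of 11 over 5 FPKM, 5 (Csf1r, Clec4f, Marco, Cd5l and Vsig4) were called lower in the tumor than in the non-tumor section and 0 higher, and the Kupffer cell gene Timd4 is listed at 0 there. Lyz2 had 269 FPKM in the tumor, against 185 FPKM in the non-tumor section. The 10 markers of bile duct and progenitor cells, mostly Spp1, summed to 428 FPKM in the 2M HKO liver, against 24.1 FPKM in the 2M Srsf2f/f liver, where Cldn4 is at 0. That sum was 2089 FPKM in the tumor and 282 FPKM in the non-tumor section, against 29.0 FPKM in the 12M Srsf2f/f liver. Of 8 stellate and matrix cell markers over 5 FPKM, 8 were called higher in the 2M HKO liver, where all 10 listed summed to 381 FPKM, against 93.2 FPKM in the 2M Srsf2f/f liver. These markers summed to 242 FPKM in the tumor and 226 FPKM in the non-tumor section, against 92.7 FPKM in the 12M Srsf2f/f liver. Of 8 endothelial markers, 7 were called higher and 1 lower in the tumor than in the non-tumor section, and the list summed to 319 FPKM in the tumor, against 84.4 FPKM in the non-tumor section. The same list summed to 160.1 FPKM in the 2M HKO liver, against 99.8 FPKM in the 2M Srsf2f/f liver. Lymphocyte and neutrophil markers summed to 134 FPKM in the 2M HKO liver, against 4.35 FPKM in the 2M Srsf2f/f liver, and to 14.4 FPKM in the tumor and 26.4 FPKM in the non-tumor section, against 7.52 FPKM in the 12M Srsf2f/f liver. Most of the 2M HKO sum came from the neutrophil genes S100a8, with 36.9 FPKM, and S100a9, with 85.4 FPKM. The T and B cell genes of this list did not exceed 1.67 FPKM in that liver. The summed level of 17 hepatocyte markers was between 73412 FPKM in the tumor and 79506 FPKM in the 2M HKO liver. In tissue RNA, fewer cells of a type and less RNA per cell cannot be told apart, and the part of these cell types in the results that follow was not tested.

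Of the 61 members, 41 exceeded 5 FPKM in at least 1 library, namely 15 Ugt, 9 Sult and 17 Gst genes. A further 5 reached between 1 and 5 FPKM, 7 stayed above 0 and up to 1 FPKM, and 8 are listed at 0 in all libraries. A 0 in these files can also be a failed assignment, since the broadly expressed Clic1 is listed at 0 in all 5 libraries. The highest level of any member was 2429 FPKM, of Gstm1 in the 2M HKO liver.

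**Figure D1:**
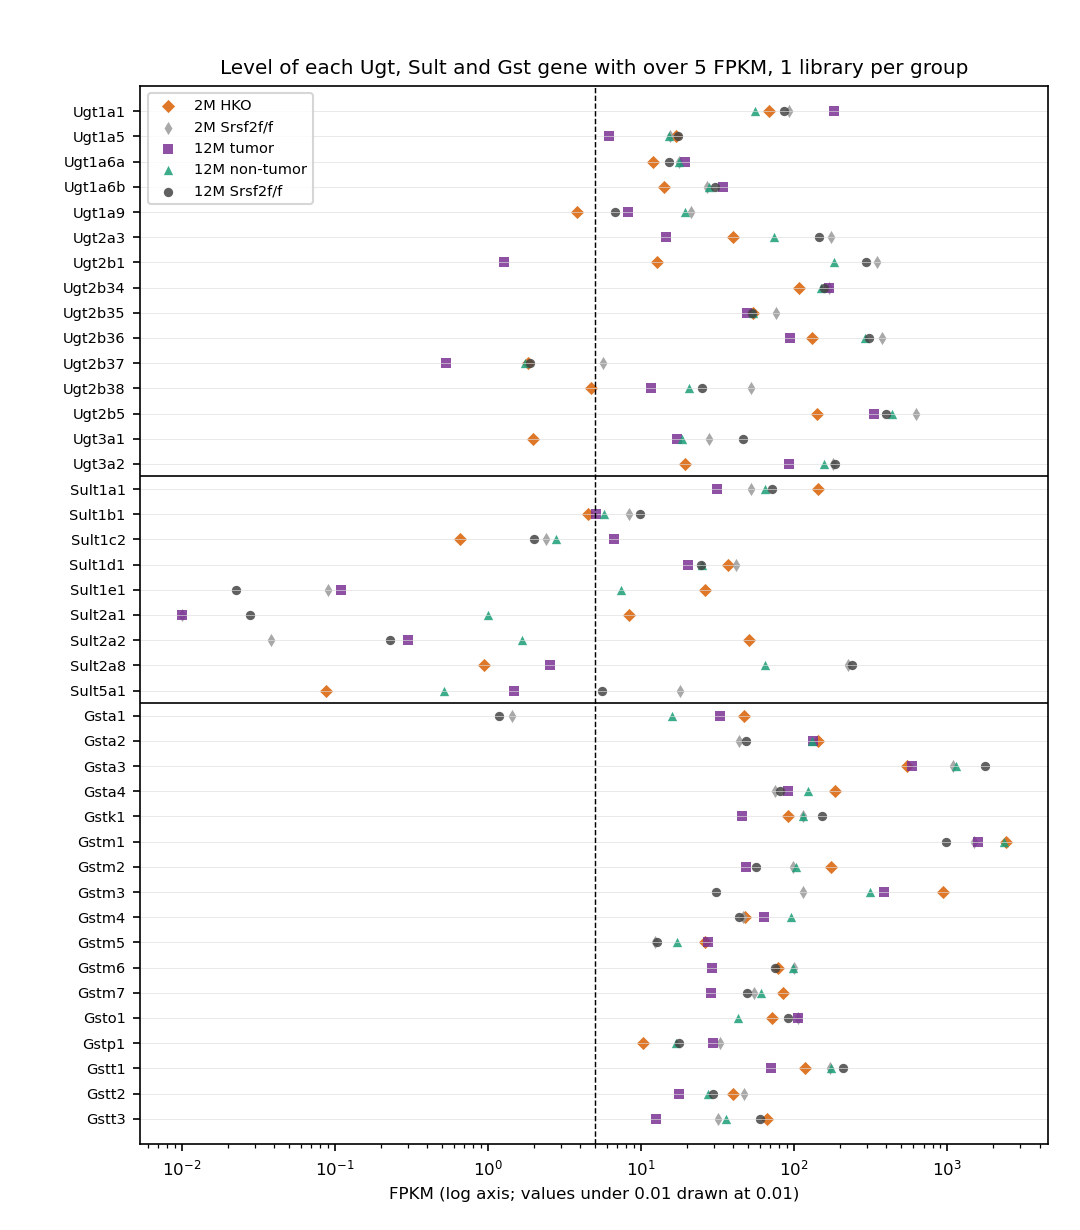
FPKM of the 41 Ugt, Sult and Gst genes that exceeded 5 FPKM in some library, on a log axis with values under 0.01 drawn at 0.01; each symbol is 1 library and the dashed line marks 5 FPKM. Sult2a2, Sult1e1 and Sult2a1 spread the widest, followed by Ugt2b1 and Sult2a8, and Ugt2b34 and Ugt2b35 stay close together in all 5 libraries.

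In the 2M HKO liver, 10 of 40 members with over 5 FPKM in either library were called higher than in the 2M Srsf2f/f liver and 13 were called lower. Over all 7220 genes tested, 19.2% were called higher and 6.98% lower, so the share of members called lower, 32.5%, exceeded that of all genes, while the share called higher, 25%, was near it. The members split by family, with 0 higher and 9 lower of 15 Ugt genes, 4 higher and 2 lower of 8 Sult genes, and 6 higher and 2 lower of 17 Gst genes. An alternative chosen after seeing the data kept members with under 20% of their sequence windows shared with another gene. Of these, 4 were called higher and 9 lower at 2M. It left out Gsta1, Gsta2, Gstm3, Gstt3, Sult2a1 and Sult2a2 from the higher and Gstp1, Ugt1a9, Ugt2b5 and Ugt2b38 from the lower members. The number tested under this filter is not given here, so no share stands beside these counts. The median log2 ratio of members with over 1 FPKM in either library was -0.50, against 0.35 over all genes, and it was -1.58 for Ugt and 0.61 for Gst genes.

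In the 12M tumor, 4 of 37 members were called higher than in the non-tumor section and 14 lower, where 17.7% of all 7618 genes tested were called higher and 8.43% lower. The lower ones were 5 of 14 Ugt, 3 of 6 Sult and 6 of 17 Gst genes, and the higher ones were Ugt1a1, Sult1c2, Gsta1 and Gsto1. The members' median log2 ratio was -0.61, against 0.26 over all genes. In the non-tumor section, 7 of 37 members were called higher than in the 12M Srsf2f/f liver and 4 lower, where 6.14% of all 6481 genes were called higher and 1.73% lower, and 5 of the 7 are Gst genes. Set against the same 12M Srsf2f/f liver, the tumor had 6 of 37 members called higher and 15 lower, where 27.4% of all 7553 genes were called higher and 9.49% lower. After rescaling to the median ratio, that split became 4 higher and 19 lower. With shared sequence left out as before, 2 members were called higher in each of these 3 comparisons. The 3 comparisons of the 12M libraries share libraries, so their counts are not independent of each other.

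Between the control livers, 12M against 2M Srsf2f/f, 0 of 36 members were called higher and 5 lower, where 2.39% of all 6114 genes were called higher and 2.09% lower. The 5 were Gstm3, Sult5a1, Ugt1a9, Ugt2b37 and Ugt2b38. The control livers differed 2.09-fold in Ugt2b38 and 3.69-fold in Gstm3, so single livers without the deletion can lie that far apart in these genes.

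**Figure D2:**
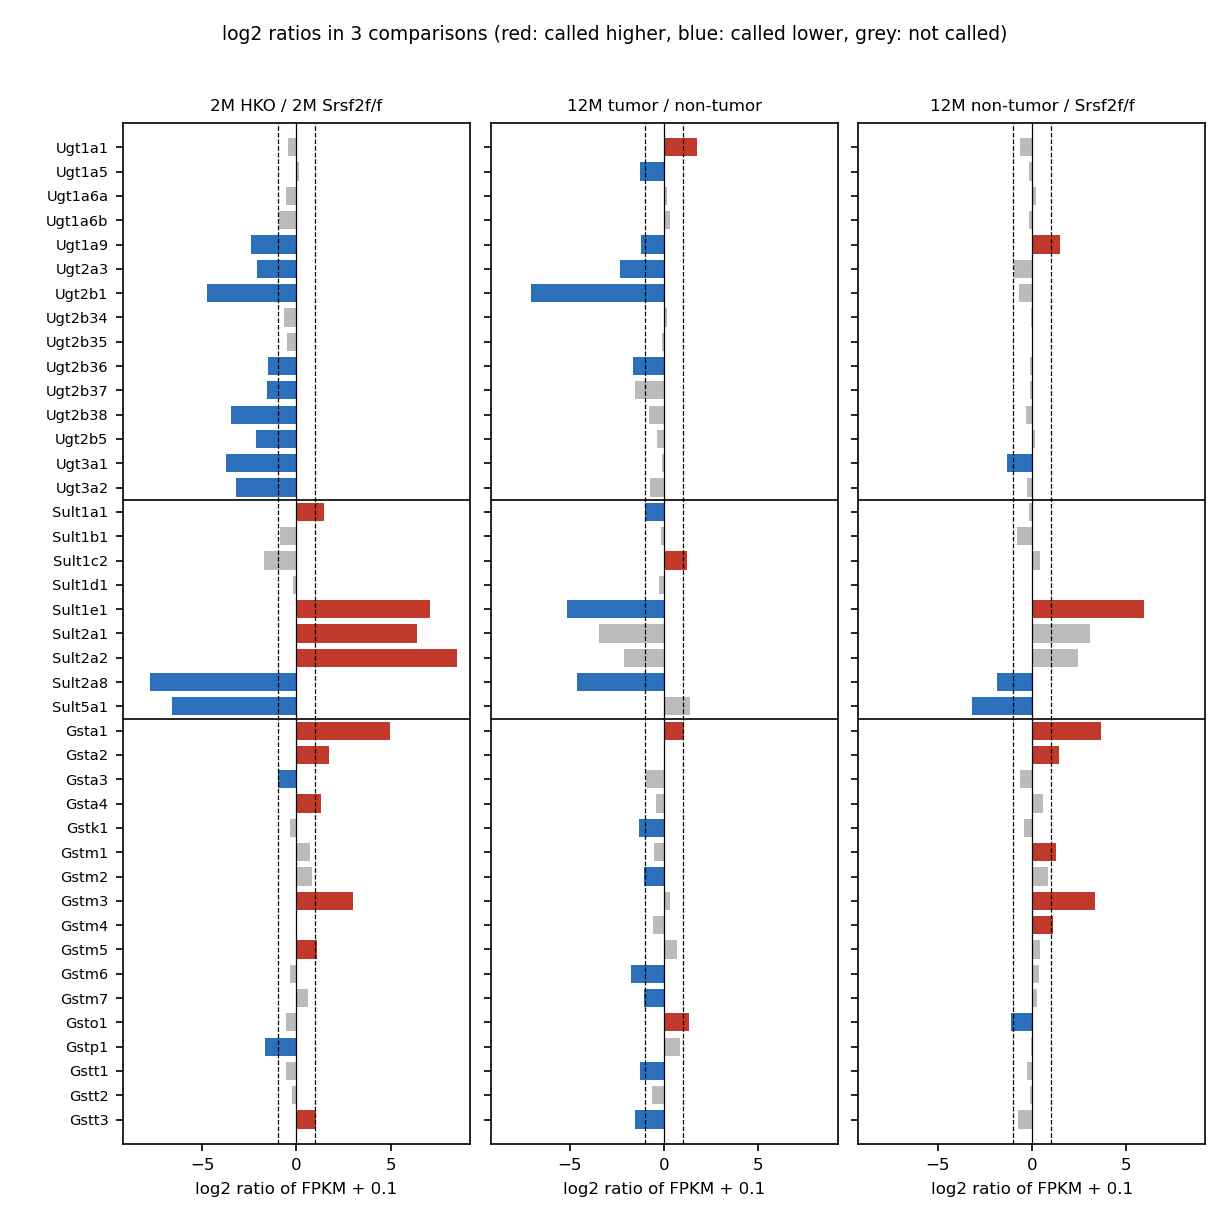
Log2 ratios of FPKM plus 0.1 for the same 41 genes in 3 comparisons, 2M HKO over 2M Srsf2f/f, 12M tumor over non-tumor section and 12M non-tumor section over Srsf2f/f; red bars were called higher, blue bars lower and grey bars not called, and dashed lines mark log2 ratios of 1 and -1. In the first panel 0 of the 15 Ugt bars are red and 9 are blue, and 6 of the 17 Gst bars are red.

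The 20 Ugt genes summed to less in the 2M HKO liver, with 631 FPKM, against 2201 FPKM in the 2M Srsf2f/f liver. The sum was 1032 FPKM in the tumor and 1521 FPKM in the non-tumor section, against 1768 FPKM in the 12M Srsf2f/f liver. Ugt2b5 was the most abundant Ugt record in all 5 libraries. It had 142 FPKM in the 2M HKO liver, against 620 FPKM in the 2M Srsf2f/f liver, a 4.38-fold lower level (95% interval 4.28 to 4.48). It had 331 FPKM in the tumor and 436 FPKM in the non-tumor section, against 395 FPKM in the 12M Srsf2f/f liver, and was not called there. Of the 50-base windows of its transcript, 41.7% also occur in another gene, mostly Ugt2b38, so its fragments could be divided between both records.

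Ugt2b1 had the largest drop among the Ugt genes. Its level was 12.8 FPKM in the 2M HKO liver, against 348 FPKM in the 2M Srsf2f/f liver, 27.2-fold lower (95% interval 25.7 to 28.9). In the tumor it had 1.27 FPKM and in the non-tumor section 182 FPKM, 143-fold lower (95% interval 119 to 173), and 294 FPKM in the 12M Srsf2f/f liver. None of the windows of Ugt2b1 occurs in another gene, so this value does not rest on divided fragments. Its share of the summed Ugt level was 2.03% in the 2M HKO liver, against 15.8% in the 2M Srsf2f/f liver, and 0.123% in the tumor, against 12.0% in the non-tumor section.

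Its neighbour Ugt2b34, whose stretch is printed above beside that of Ugt2b1 and is 49.7% identical to it, was not called in any comparison. It had 108 FPKM in the 2M HKO liver, against 169 FPKM in the 2M Srsf2f/f liver, and 168 FPKM in the tumor and 150 FPKM in the non-tumor section, against 156 FPKM in the 12M Srsf2f/f liver. Ugt2b35, the next gene after Ugt2b1, stayed between 48.9 and 76.6 FPKM in all libraries and was not called either. Within this one cluster the gene with the largest drop therefore lies between 2 genes that were not called in any of the 5 comparisons.

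Ugt2b36 and Ugt2a3, an enzyme whose human form conjugates bile acids, were lower both in the 2M HKO liver and in the tumor. Ugt2b36 had 131 FPKM in the 2M HKO liver, against 374 FPKM in the 2M Srsf2f/f liver, and 93.3 FPKM in the tumor and 291 FPKM in the non-tumor section, against 308 FPKM in the 12M Srsf2f/f liver. Ugt2a3 had 39.996 FPKM in the 2M HKO liver, against 174 FPKM in the 2M Srsf2f/f liver, and 14.5 FPKM in the tumor and 74.3 FPKM in the non-tumor section, against 145 FPKM in the 12M Srsf2f/f liver. The tumor level of Ugt2a3 was 5.13-fold lower than in the non-tumor section (95% interval 4.80 to 5.47). Ugt2b36 shares 0.326% of its windows and Ugt2a3 4.55% with other genes, few enough that their values do not rest on the division of fragments among paralogs. Ugt2b38 had 4.68 FPKM in the 2M HKO liver, against 52.4 FPKM in the 2M Srsf2f/f liver, and 11.6 FPKM in the tumor and 20.4 FPKM in the non-tumor section, against 25.1 FPKM in the 12M Srsf2f/f liver. Its 2 control livers thus differed 2.09-fold, while 37.4% of its windows are shared. Ugt2b37 was low throughout, with its highest level, 5.68 FPKM, in the 2M Srsf2f/f liver.

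The Ugt3a genes on chromosome 15, whose human forms use other sugar donors than glucuronic acid, were low in the 2M HKO liver. Ugt3a2 had 19.3 FPKM there, against 179 FPKM in the 2M Srsf2f/f liver, 9.28-fold lower (95% interval 8.80 to 9.78). Ugt3a1 had 1.96 FPKM there, against 27.8 FPKM in the 2M Srsf2f/f liver, 14.2-fold lower (95% interval 12.1 to 16.8). At 12M the deficit was smaller, with 92.3 FPKM of Ugt3a2 in the tumor and 158 FPKM in the non-tumor section, against 186 FPKM in the 12M Srsf2f/f liver. Ugt3a1 had 17.3 FPKM in the tumor and 18.5 FPKM in the non-tumor section, against 46.7 FPKM in the 12M Srsf2f/f liver, so both sections of the mutant liver were called lower than that control. Neither gene was called between tumor and non-tumor section.

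Ugt1a1 went the other way in the tumor. It had 183 FPKM in the tumor and 55.1 FPKM in the non-tumor section, 3.32-fold higher (95% interval 3.23 to 3.41), and 85.9 FPKM in the 12M Srsf2f/f liver. At 2M it had 68.4 FPKM in the HKO liver, against 92.8 FPKM in the Srsf2f/f liver, and was not called. The call of the tumor against the 12M Srsf2f/f liver, at a log2 ratio of 1.09, was lost after rescaling, while that against the non-tumor section was kept. Ugt1a1 made up 17.7% of the summed Ugt level in the tumor, against 3.63% in the non-tumor section.

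Ugt1a5 and Ugt1a9, from the same locus, were lower in the tumor than in the non-tumor section. Ugt1a5 had 6.16 FPKM in the tumor and 15.3 FPKM in the non-tumor section, against 17.4 FPKM in the 12M Srsf2f/f liver, and 16.9 FPKM in the 2M HKO liver, against 15.5 FPKM in the 2M Srsf2f/f liver. Ugt1a9, which conjugates phenols, had 3.82 FPKM in the 2M HKO liver, against 21.03 FPKM in the 2M Srsf2f/f liver, and 8.16 FPKM in the tumor and 19.4 FPKM in the non-tumor section, against 6.80 FPKM in the 12M Srsf2f/f liver. The non-tumor section was called higher than the 12M Srsf2f/f liver, which was itself called lower than 2M Srsf2f/f. Ugt1a6a, between 12.0 and 19.4 FPKM, and Ugt1a6b, between 14.1 and 34.3 FPKM, also act on phenols and were called in no comparison. After rescaling, Ugt1a6b was called lower in the 2M HKO liver than in the 2M Srsf2f/f liver. The records named here share between 58.2% of windows, for Ugt1a1, and 100% of windows, for Ugt1a6a, so the level of each is uncertain. Ugt1a10, named after its values were seen, is nonetheless listed at 0 in all libraries. The sum over the locus was 116 FPKM in the 2M HKO liver, against 174 FPKM in the 2M Srsf2f/f liver, and 252 FPKM in the tumor and 136 FPKM in the non-tumor section, against 156 FPKM in the 12M Srsf2f/f liver.

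The Sult family differed in makeup between the 2M livers. The sum was 275 FPKM in the 2M HKO liver, against 353 FPKM in the 2M Srsf2f/f liver, and was 71.4 FPKM in the tumor and 177 FPKM in the non-tumor section, against 356 FPKM in the 12M Srsf2f/f liver. These sums and the shares of them use the deposited gene lengths. For Sult1a1 that length is 4215 bases, while its longest protein-coding transcript has 1370 bases. The shorter length would raise its FPKM in every library, so the order of the 2M sums and the shares rest on the length used. Sult2a8, a sulfotransferase of mouse liver that acts on bile acids, was the most abundant member in both controls and made up 64.1% and 66.5% of the sum in the 2M and 12M Srsf2f/f livers. It had 0.944 FPKM in the 2M HKO liver, against 226 FPKM in the 2M Srsf2f/f liver, 240-fold lower (95% interval 191 to 305). It had 2.55 FPKM in the tumor and 64.8 FPKM in the non-tumor section, 25.4-fold lower (95% interval 22.05 to 29.4), and 237 FPKM in the 12M Srsf2f/f liver. The non-tumor section was itself 3.65-fold below that control, so Sult2a8 was called lower in each mutant tissue against its control of the same age. None of its windows occurs in another gene.

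Other Sult2a genes of the same cluster on chromosome 7, which sulfate hydroxysteroids and in mouse liver are known as female-predominant, moved in the opposite direction at 2M. Sult2a2 had 51.0 FPKM in the 2M HKO liver, against 0.0386 FPKM in the 2M Srsf2f/f liver, from 1365 fragments against 1 fragment, a ratio of 1322 (95% interval 237 to 52258). Sult2a1 had 8.38 FPKM in the 2M HKO liver and is listed at 0 in the 2M Srsf2f/f liver, at least 99.8-fold higher when the control is set to a floor of 3 fragments. Both had low levels at 12M. Sult2a2 had 0.299 FPKM in the tumor and 1.68 FPKM in the non-tumor section, against 0.230 FPKM in the 12M Srsf2f/f liver. Sult2a1 is listed at 0 in the tumor, with 0.999 FPKM in the non-tumor section and 0.0279 FPKM in the 12M Srsf2f/f liver. Sult2a2 shares 62.1% and Sult2a1 33.2% of windows with other Sult2a genes, so the split between them is uncertain, but Sult2a8 shares none with them. The 2 members at the ends of this cluster stay under 5 FPKM and were chosen after their values were seen. Sult2a5 had 1.93 FPKM in the 2M HKO liver and is listed at 0 in the 2M Srsf2f/f liver, while Sult2a7, with 18389 bases between it and Sult2a8, had 0.185 FPKM in the 2M HKO liver, against 4.08 FPKM in the 2M Srsf2f/f liver.

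**Figure D3:**
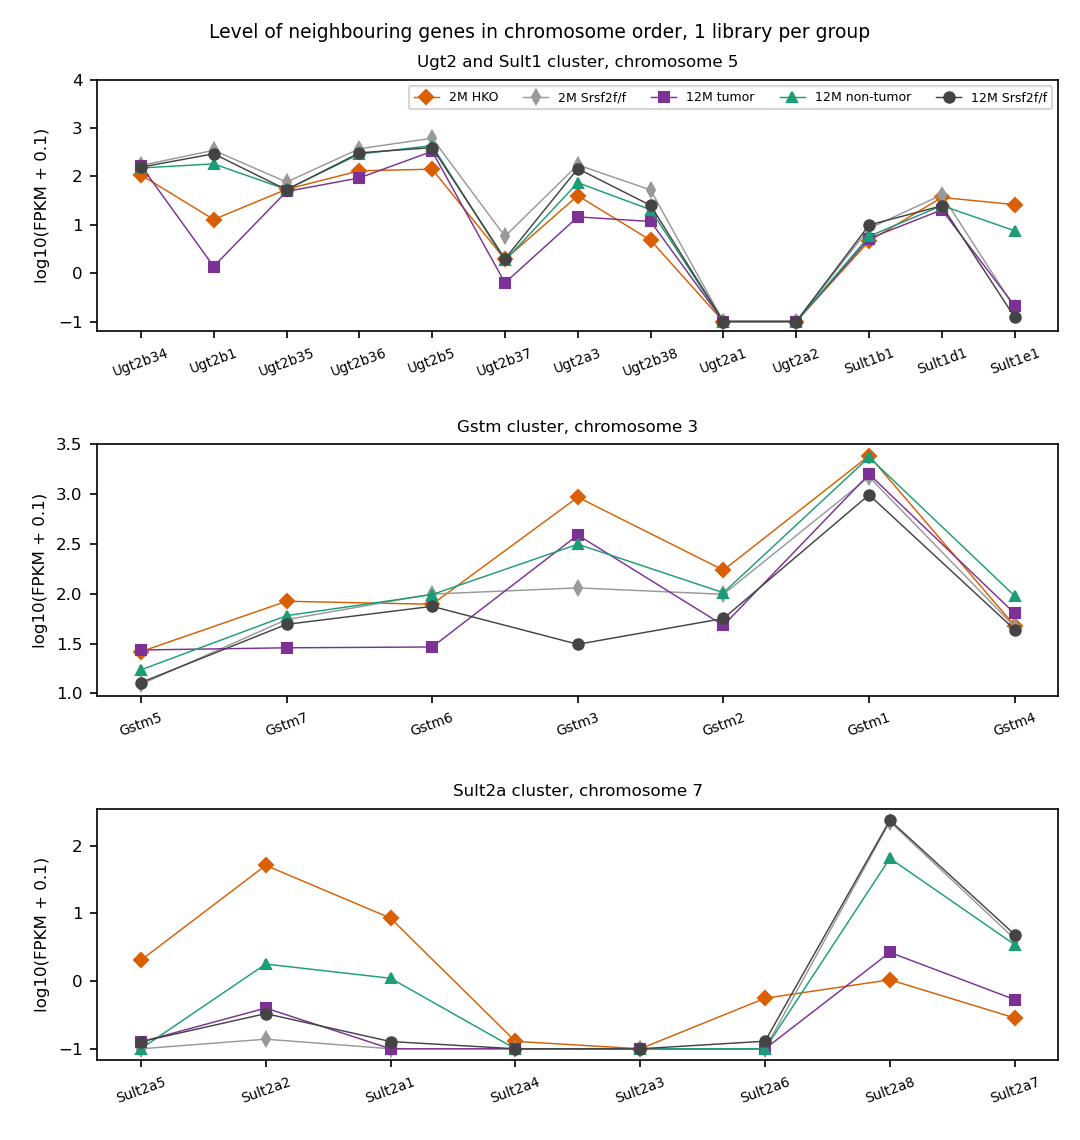
Log10 of FPKM plus 0.1 for the members of 3 clusters in chromosome order, with 1 line per library; lines join neighbours and carry no other meaning. In the Ugt2 cluster the 2M HKO and tumor lines dip at Ugt2b1 alone among the first 3 genes, and in the Sult2a cluster the 2M HKO line lies above the others at Sult2a2 and Sult2a1 and below them at Sult2a8.

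Reference genes of sex-biased expression in mouse liver stood beside this. Of 8 with over 5 FPKM at 2M, 6 were called lower in the HKO liver, all male-predominant (Cyp2d9, Cyp4a12a, Hsd3b5, Slco1a1, Elovl3 and Mup20). The female-predominant Cyp2b9 was called higher, with 15.1 FPKM in the 2M HKO liver, against 0.0547 FPKM in the 2M Srsf2f/f liver. The Y-linked gene Eif2s3y had between 8.83 and 13.01 FPKM in all 5 libraries and Xist, the RNA of the inactive X chromosome, is listed at 0 in all, so all 5 hold RNA of the Y chromosome. In the tumor, 5 of 6 of these sex-biased genes were called lower than in the non-tumor section and 0 higher. Cyp2b9 did not exceed 0.394 FPKM at 12M.

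Sult1e1, the estrogen sulfotransferase, was near 0 in both controls and higher in the mutant livers outside the tumor. It had 26.1 FPKM in the 2M HKO liver, against 0.0908 FPKM in the 2M Srsf2f/f liver, from 1186 fragments against 4 fragments, a ratio of 287 (95% interval 112 to 1056). It had 0.1099 FPKM in the tumor and 7.44 FPKM in the non-tumor section, 67.7-fold lower (95% interval 28.7 to 210), and 0.0226 FPKM, from 1 fragment, in the 12M Srsf2f/f liver. None of its windows occurs in another gene. Sult1d1, an enzyme that sulfates catecholamines in mouse and lies 6961 bases from Sult1e1, stayed between 20.3 and 41.6 FPKM and was not called in any comparison.

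Sult1a1, the main phenol sulfotransferase, had 143 FPKM in the 2M HKO liver, against 52.3 FPKM in the 2M Srsf2f/f liver, 2.74-fold higher (95% interval 2.67 to 2.82). In the tumor it had 31.2 FPKM and in the non-tumor section 64.4 FPKM, against 71.9 FPKM in the 12M Srsf2f/f liver. It was thus called higher at 2M and lower in the tumor, and it was the most abundant Sult gene in the 2M HKO liver and in the tumor. Sult5a1 had 0.0881 FPKM in the 2M HKO liver, against 17.9 FPKM in the 2M Srsf2f/f liver, 204-fold lower (95% interval 79.2 to 749). It had 1.48 FPKM in the tumor and 0.518 FPKM in the non-tumor section, against 5.59 FPKM in the 12M Srsf2f/f liver, where the control itself was 3.21-fold below the 2M control. Sult1c2 had 6.62 FPKM in the tumor and 2.76 FPKM in the non-tumor section, against 2.00 FPKM in the 12M Srsf2f/f liver. Sult1b1, which acts on phenols and thyroid hormone, stayed between 4.51 and 9.81 FPKM and was not called. After rescaling, it was called lower in the 2M HKO liver and in the tumor, each against the Srsf2f/f liver of the same age.

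**Figure D4:**
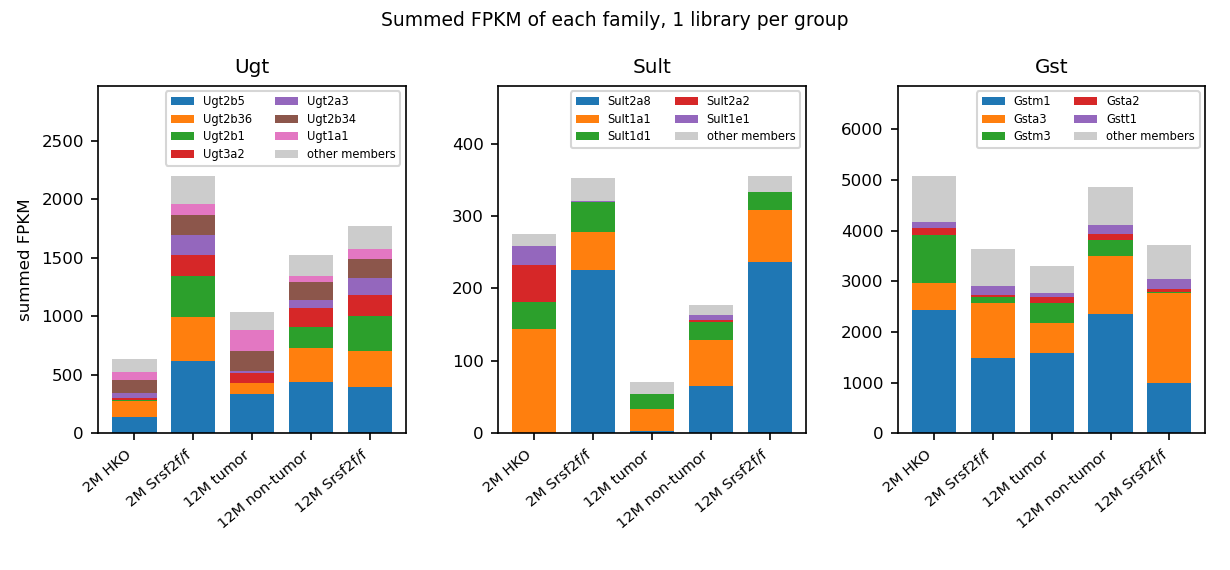
Summed FPKM of the 20 Ugt, 21 Sult and 20 Gst genes in each library as stacked bars, with the most abundant members in colour and the others in grey. The Ugt bar is lowest in the 2M HKO liver at 631 FPKM, the Sult bar is lowest in the tumor at 71.4 FPKM, and the Gst bar is highest in the 2M HKO liver at 5084 FPKM.

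The Gst family summed to 5084 FPKM in the 2M HKO liver, against 3626 FPKM in the 2M Srsf2f/f liver, and to 3301 FPKM in the tumor and 4861 FPKM in the non-tumor section, against 3717 FPKM in the 12M Srsf2f/f liver. The mu and alpha classes hold most of this level. The 7 mu genes summed to 3770 FPKM in the 2M HKO liver, against 1915 FPKM in the 2M Srsf2f/f liver, and the 4 alpha genes to 915 FPKM in the 2M HKO liver, against 1208 FPKM in the 2M Srsf2f/f liver. Within the tumor and the non-tumor section the mu genes summed to 2171 and 3035 FPKM, against 1253 FPKM in the 12M Srsf2f/f liver, and the alpha genes to 847 and 1412 FPKM, against 1903 FPKM in the 12M Srsf2f/f liver. Both classes were thus lower in the tumor than in the non-tumor section, by ratios of 0.715 for mu and 0.5999 for alpha. The control livers themselves differed, by a ratio of 0.654 for mu and 1.58 for alpha at 12M over 2M, which is more than the alpha ratio of 0.758 for 2M HKO over 2M Srsf2f/f.

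Among the alpha genes, Gsta1, an inducible transferase, was called higher in every mutant tissue. It had 47.3 FPKM in the 2M HKO liver, against 1.43 FPKM in the 2M Srsf2f/f liver, a 33.1-fold difference (95% interval 24.5 to 46.0). It had 32.8 FPKM in the tumor and 16.0 FPKM in the non-tumor section, against 1.19 FPKM in the 12M Srsf2f/f liver. The call between tumor and non-tumor section, at a log2 ratio of 1.03, was lost after rescaling and with a pseudocount of 1. Gsta2 had 142 FPKM in the 2M HKO liver, against 43.5 FPKM in the 2M Srsf2f/f liver, and 132 FPKM in the tumor and 131 FPKM in the non-tumor section, against 48.5 FPKM in the 12M Srsf2f/f liver. Of the windows of Gsta1, 89.7% occur in another gene (Gm3776, Gsta2 and Gm10639), and 64.2% of those of Gsta2 do, so the level of each is uncertain, and the printed stretches before their starts are close to each other as well. Gsta4, which removes the lipid peroxidation product 4-hydroxynonenal, shares none. It had 184 FPKM in the 2M HKO liver, against 75.0 FPKM in the 2M Srsf2f/f liver, 2.45-fold higher (95% interval 2.34 to 2.57), and 91.1 FPKM in the tumor and 123 FPKM in the non-tumor section, against 80.8 FPKM in the 12M Srsf2f/f liver.

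Gsta3, which in mouse detoxifies the epoxide of aflatoxin B1 and is the most abundant alpha gene, was lower. It had 542 FPKM in the 2M HKO liver, against 1088 FPKM in the 2M Srsf2f/f liver, and 592 FPKM in the tumor and 1143 FPKM in the non-tumor section, against 1773 FPKM in the 12M Srsf2f/f liver. The 2M call sits at a log2 ratio of -1.01 and was lost on the TPM scale, while that of the tumor against the 12M control, at -1.58, was kept. None of its windows is shared with another gene.

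Gstm3 had the largest difference among the mu genes. It had 932 FPKM in the 2M HKO liver, against 115 FPKM in the 2M Srsf2f/f liver, 8.14-fold higher (95% interval 7.90 to 8.38). It had 389 FPKM in the tumor and 314 FPKM in the non-tumor section, against 31.1 FPKM in the 12M Srsf2f/f liver, 10.1-fold higher for the non-tumor section (95% interval 9.56 to 10.7). The 2 control livers differed 3.69-fold, and 28.8% of its windows are shared with other genes, so the size of the 12M ratios rests in part on which control is used. Gstm1 had 2429 FPKM in the 2M HKO liver, against 1489 FPKM in the 2M Srsf2f/f liver, and 1586 FPKM in the tumor and 2347 FPKM in the non-tumor section, against 985 FPKM in the 12M Srsf2f/f liver. It was called only for the non-tumor section against that control, at a log2 ratio of 1.25.

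The other mu genes lie on the same cluster of chromosome 3 and did not move together. Gstm6, 10212 bases from Gstm3, had 29.2 FPKM in the tumor and 98.2 FPKM in the non-tumor section, against 74.8 FPKM in the 12M Srsf2f/f liver, and 78.5 FPKM in the 2M HKO liver, against 99.3 FPKM in the 2M Srsf2f/f liver. Gstm2 and Gstm7 were also called lower in the tumor than in the non-tumor section, at log2 ratios of -1.09 and -1.07. Gstm4 was called higher for the non-tumor section against the 12M Srsf2f/f liver, with 95.02 FPKM against 43.7 FPKM, a call that was lost after rescaling. Gstm5 had 26.2 FPKM in the 2M HKO liver, against 12.3 FPKM in the 2M Srsf2f/f liver, and 27.2 FPKM in the tumor and 17.2 FPKM in the non-tumor section, against 12.8 FPKM in the 12M Srsf2f/f liver. Both of its calls, in the 2M HKO liver and in the tumor against the 12M control, were lost after rescaling.

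The theta genes Gstt1 and Gstt3 and the kappa gene Gstk1 were lower in the tumor. Gstt1, which acts on small halogenated compounds, had 70.8 FPKM in the tumor and 174 FPKM in the non-tumor section, against 209 FPKM in the 12M Srsf2f/f liver. Gstt3 had 12.5 FPKM in the tumor and 36.1 FPKM in the non-tumor section, against 59.9 FPKM in the 12M Srsf2f/f liver, and was higher at 2M, with 66.2 FPKM in the HKO liver, against 32.0 FPKM in the Srsf2f/f liver. That 2M call, at a log2 ratio of 1.05, was lost after rescaling. Gstk1, the transferase of mitochondria and peroxisomes, had 45.3 FPKM in the tumor and 114 FPKM in the non-tumor section, against 152 FPKM in the 12M Srsf2f/f liver. Gstt2 stayed between 17.7 and 47.0 FPKM and was not called, except after rescaling, as lower in the tumor against the 12M Srsf2f/f liver.

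Gsto1, an omega class enzyme that reduces dehydroascorbate, was the Gst gene besides Gsta1 called higher in the tumor than in the non-tumor section. It had 106 FPKM in the tumor and 42.6 FPKM in the non-tumor section, against 91.2 FPKM in the 12M Srsf2f/f liver, so its tumor level was near that of the control. At 2M it had 71.9 FPKM in the HKO liver, against 105 FPKM in the Srsf2f/f liver. Gstp1, the pi class gene, had 10.3 FPKM in the 2M HKO liver, against 33.0 FPKM in the 2M Srsf2f/f liver, 3.21-fold lower (95% interval 2.80 to 3.69), and 29.6 FPKM in the tumor and 16.8 FPKM in the non-tumor section, against 17.7 FPKM in the 12M Srsf2f/f liver. The deposited record of Gstp1 lies on a patch scaffold of the genome beside Gstp2, a gene under 5 FPKM named here for its sequence, with which 62.3% of its windows are shared.

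The 2M comparison and that of the tumor with the non-tumor section share no library. Of the 13 members called lower in the 2M HKO liver and the 14 called lower in the tumor, 5 were the same genes (Sult2a8, Ugt1a9, Ugt2a3, Ugt2b1 and Ugt2b36), or 38.5% of the first list and 35.7% of the second. Over all genes, 214 were called lower in both, or 42.5% of the 504 called lower at 2M and 33.3% of the 642 called lower in the tumor, so the members' share was near that of all genes. Of the 10 called higher at 2M, 1 of the 4 called higher in the tumor was shared, Gsta1, where 468 of all 1386 genes called higher at 2M were, and 3 were called lower in the tumor (Gstt3, Sult1a1 and Sult1e1). No member was called lower at 2M and higher in the tumor. Calls in opposite directions were not counted over all genes, so whether members differ from other genes in this is not known. Gsta1 and Gstt3 are here only without rescaling.

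**Figure D5:**
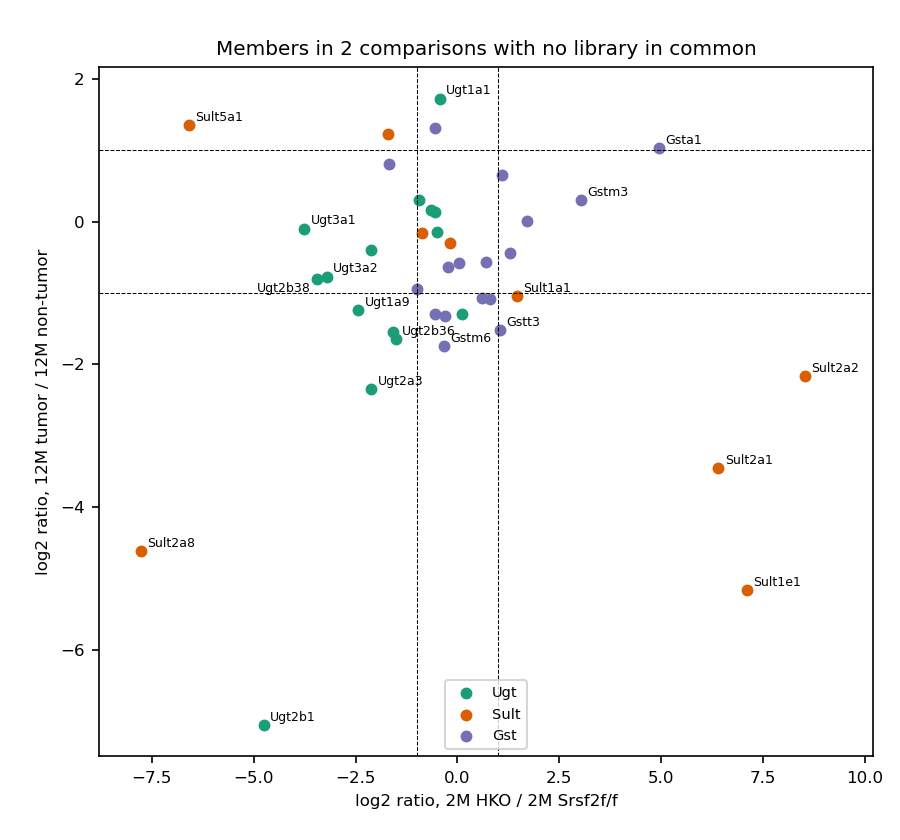
Log2 ratios of FPKM plus 0.1 for the 41 genes, 2M HKO over 2M Srsf2f/f on the horizontal axis and 12M tumor over 12M non-tumor section on the vertical axis; each point is 1 gene and dashed lines mark log2 ratios of 1 and -1. Sult2a8 and Ugt2b1 lie far down on the left, and Sult1e1, Sult2a1 and Sult2a2 lie on the right below 0, of which only Sult1e1 exceeds 5 FPKM in 1 of the 12M sections.

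The genes that supply the donors can be read against the shares of all genes given above. Of 7 genes for UDP-glucuronic acid with over 5 FPKM, 1 was called higher in the 2M HKO liver (Pgm1) and 0 lower, and 1 was called higher in the tumor than in the non-tumor section (Hk1) and 0 lower. Ugdh, which makes UDP-glucuronic acid, had 112 FPKM in the 2M HKO liver, against 77.8 FPKM in the 2M Srsf2f/f liver, and Ugp2, which makes its precursor, had 68.2 FPKM in the 2M HKO liver, against 132 FPKM in the 2M Srsf2f/f liver. Of 7 genes for PAPS and sulfate, 0 were called in either direction at 2M and 2 were called lower in the tumor than in the non-tumor section. These were the sulfate transporter Slc26a1, with 9.34 FPKM in the tumor, against 47.8 FPKM in the non-tumor section, and the sulfite oxidase Suox, with 18.5 FPKM in the tumor, against 89.9 FPKM in the non-tumor section. For glutathione, 3 of 9 genes were called higher at 2M (Gss, Gsr and Ggct) and 3 of 10 in the tumor against the non-tumor section (Gss, Ggt1 and Ggct), with 0 lower in both. Gss, the glutathione synthetase, had 88.9 FPKM in the 2M HKO liver, against 36.9 FPKM in the 2M Srsf2f/f liver, and 99.97 FPKM in the tumor, against 46.3 FPKM in the non-tumor section.

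Of 13 other genes of conjugation, which include methyltransferases, amino acid transferases and the acyl-CoA synthetases Acsm1, Acsm3 and Acsm5 that activate acids for them, 7 were called lower and 0 higher in the 2M HKO liver (Inmt, Gnmt, Glyat, Gm4952, Acsm1, Acsm3 and Acsm5), and 6 were called lower and 0 higher in the tumor against the non-tumor section. Inmt, a methyltransferase of indolamines, had 48.5 FPKM in the 2M HKO liver, against 1097 FPKM in the 2M Srsf2f/f liver. Of 3 glutathione transferases outside the families with over 5 FPKM at 2M, Mgst3 was called higher and Mgst1 lower. Mgst1, which is bound to membranes, had 1477 FPKM in the 2M HKO liver, against 3200 FPKM in the 2M Srsf2f/f liver, and 1087 FPKM in the tumor, against 2684 FPKM in the non-tumor section. Of 8 efflux and deconjugation genes, 2 were called higher (Abcb1a and Gusb) and 1 lower (Abcc6) at 2M. Of 9 efflux and deconjugation genes, 4 were called higher and 0 lower in the tumor against the non-tumor section (Abcc4, Abcg2, Abcb1a and Arsa), with 77.4 FPKM of the efflux pump Abcg2 in the tumor, against 37.1 FPKM in the non-tumor section.

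Among 17 transcription factors of phase II genes with over 5 FPKM, 2 were called higher in the 2M HKO liver (Ahr and Maff) and 1 lower (Cebpa). In the tumor against the non-tumor section, 1 of 17 was called higher (Maff) and 2 lower (Nr1i3 and Ahr). Ahr had 12.8 FPKM in the 2M HKO liver, against 2.24 FPKM in the 2M Srsf2f/f liver, and 2.06 FPKM in the tumor, against 5.72 FPKM in the non-tumor section. Nfe2l2, which encodes Nrf2, had 46.4 FPKM in the 2M HKO liver, against 24.5 FPKM in the 2M Srsf2f/f liver, and was not called. Of 17 other Nrf2 target genes, 9 were called higher and 1 lower at 2M, among them Nqo1, a quinone reductase, with 61.9 FPKM in the 2M HKO liver, against 4.86 FPKM in the 2M Srsf2f/f liver. Of 19 in the tumor against the non-tumor section, 6 were called higher and 1 lower. Within the tumor, Nr1i3, the gene of CAR, had 1.24 FPKM, against 28.6 FPKM in the non-tumor section and 49.2 FPKM in the 12M Srsf2f/f liver, while Nr1i2, the gene of PXR, had 81.8 FPKM in the tumor, against 44.5 FPKM in the non-tumor section and 40.7 FPKM in the 12M Srsf2f/f liver. Of 9 other target genes of CAR, 4 were called higher and 1 lower at 2M, and of 6, 1 was called higher (Cyp2b10) and 1 lower (Cyp3a11) in the tumor against the non-tumor section. Between the non-tumor section and the 12M Srsf2f/f liver few genes of these lists were called, among them Papss1 and Inmt as lower and Srxn1 as higher. No relation between these factors and the members was tested.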

How the data were processed

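RNA of mouse liver was sequenced in 5 libraries, with 1 in each group. Per the submitters' processing notes, reads were mapped with Bowtie 0.12.2 to GRCm38, and the authors deposited FPKM per gene. The counting tool and annotation are not given in the sources used here. Fragments were recovered from the smallest FPKM step of each library, and between 98.7% and 98.8% of values came out whole within 0.01. Between 58.8% and 61.0% of the counts from 2 to 21 were even, so intervals may be too narrow. Log2 ratios used a pseudocount of 0.1 FPKM. Calls needed a log2 ratio past 1 or -1 and over 5 FPKM in 1 of the compared libraries; medians used genes over 1 FPKM. The study's EBSeq p-values were not repeated. A planned comparison of the members' protein sequences was not run, since no protein sequences were used here. Genes named in the text are the 41 members over 5 FPKM, the listed genes, members named for a sequence or motif, and those said to be named or chosen after their values were seen. Some listed genes and 1 planned motif are not reported here. The members and lists were chosen with earlier results of these data known. The alternatives were pseudocounts of 1 and 0.01, other minimum levels, rescaling by the median ratio over 9099 genes, TPM, and leaving out genes with shared sequence. Shared sequence is the share of a transcript's windows of 50 bases found in another gene. Setting members listed at 0 to their bound moved no median. It could not, because at most 2 measured members in a comparison were affected and their bounds stayed on the same side of it. Scripts were tested on simulated data and ran in Python 3.11.15 (scipy 1.17.1, pandas 2.3.3, matplotlib 3.10.9, numpy 2.4.6).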

Additional observations from a re-analysis of the deposited data

Results flagged for a closer look

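Ugt1a9, Gstt3 and Sult1a1 were called in opposite directions in mutant tissues against the Srsf2f/f liver of the same age. With 1 library a group, the differences between these ratios were not tested. How often other genes had opposite calls was not counted. The log2 ratio of Ugt1a9 was -2.43 for the 2M HKO liver against 2M Srsf2f/f and 1.49 for the 12M non-tumor section against 12M Srsf2f/f, and the records of its locus share sequence. That of Gstt3 was 1.05 for the 2M HKO liver against 2M Srsf2f/f and -2.25 for the tumor against 12M Srsf2f/f, and the first of these calls was lost after rescaling. That of Sult1a1 was 1.45 for the 2M HKO liver against 2M Srsf2f/f and -1.203 for the tumor against 12M Srsf2f/f.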

How the results depend on the processing

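No paired analysis was possible because each group has 1 library, and leaving out a replicate was not possible either. No call turned direction under any rescaling, TPM or pseudocount. Rescaling also added lower calls. These were Sult1b1 and Ugt1a6b for 2M HKO against 2M Srsf2f/f and Ugt2a3 for the non-tumor section against 12M Srsf2f/f. Gsta3 was added for the tumor against the non-tumor section, and Gstm7, Gstt2, Sult1b1 and Sult2a7 for the tumor against 12M Srsf2f/f. Counts of calls were within 1.5 times the values reported with over 10 FPKM as the minimum, in 10 of 10 cases. For 2M HKO against 2M Srsf2f/f, the median log2 ratio of members was -0.74 after rescaling, -0.37 on the TPM scale and -0.42 without the Ugt1a locus, Gstp1, Gstp2 and Sult2a. For the non-tumor section against 12M Srsf2f/f, it was -0.27 after rescaling and 0.0061 on the TPM scale. For the tumor against the non-tumor section, the count called higher was 7 with a minimum of 1 FPKM, 9 with none and 7 with over 50 fragments instead, and the median was -0.77 after rescaling. For the tumor against 12M Srsf2f/f, 10 were called higher with no minimum, and the median was -0.49 with a pseudocount of 1, -0.51 with 0.01, -0.86 after rescaling, -0.41 on the TPM scale and -0.76 without the Ugt1a locus, Gstp1, Gstp2 and Sult2a. For 12M against 2M Srsf2f/f, 1 was called higher with a minimum of 1 FPKM and 3 with none, and the median was -0.24 without those loci. An alternative chosen after seeing the data kept only members with under 20% of windows shared. It left 4 called higher at 2M with a median of -0.55, 2 higher with -0.11 for the non-tumor section against 12M Srsf2f/f, 2 higher with -0.86 for the tumor against the non-tumor section, 2 higher with -1.01 for the tumor against 12M Srsf2f/f, and 2 lower for 12M against 2M Srsf2f/f. In the first 4 of these comparisons, 9, 4, 11 and 12 members were called lower under it. This alternative tests fewer genes by construction, and the cause of the other changes was not tested. Fragment intervals cover counting error only, and low members such as Sult2a2 and Sult1e1 rest on 1 and 4 fragments in the 2M Srsf2f/f liver.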
